A study of Homo sapiens with 6 samples.

Results

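The thioredoxin system and the peroxiredoxins were followed at the transcript level as 10 genes: TXN, TXNRD1, TXNIP, SRXN1 and PRDX1 to PRDX6. They were taken from a table of 78304 genes as the rows with these symbols. Each symbol occurred once, so all 10 were found. The table holds 6 poly(A) RNA sequencing libraries of Huh7, an established human hepatocellular carcinoma line labelled as wild type. Of these, 3 libraries came from cells given the compound 16'-DEC for 24 h and 3 from cells given its vehicle DMSO for 24 h, in each case after 24 h in the plate. The dose and the structure of 16'-DEC are not stated in the sources used here. Nothing states whether the replicates were grown as separate cultures, so the p-values reflect the spread between libraries alone. The study was designed to find which transcripts change when 16'-DEC acts on liver cancer cells.

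Thioredoxin (TXN) is a small protein that reduces disulfides in other proteins, and thioredoxin reductase 1 (TXNRD1), a selenoprotein, returns it to the reduced state with electrons from NADPH. Peroxiredoxins destroy hydrogen peroxide with a reactive cysteine, and most of them are recharged by thioredoxin. Sulfiredoxin (SRXN1) rescues peroxiredoxins whose cysteine was over-oxidized, while TXNIP binds reduced thioredoxin and holds it back. Several of these genes are known targets of NRF2, the transcription factor of the oxidative stress response. The liver, where oxidative metabolism is high, is rich in peroxiredoxins.

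After 16'-DEC, 6 of the 10 transcripts rose: SRXN1 about 2.08-fold, and PRDX1, PRDX2, PRDX4, PRDX5 and PRDX6 between 1.43-fold and 1.67-fold (ratios of mean TPM). TXN, TXNIP and PRDX3 fell, to 0.707, 0.764 and 0.452 of their DMSO means. TXNRD1 did not pass the test. Levels are TPM, a transcript abundance scaled by transcript length and to a fixed sum in each library. Changes are differences of mean log2(TPM + 1), 16'-DEC minus DMSO, with their SE. The test was limma over the 14275 genes that averaged 1 TPM or more, with Benjamini-Hochberg adjusted p-values and a threshold of 0.05. All 10 members passed the filter on low values. Over all tested genes 22.7% were called higher and 48.9% lower, so calls in either direction were the rule in these libraries, at 71.5%. In 9 of the 10 members the groups did not overlap, against 75.3% of all tested genes (24.3% higher and 51% lower throughout). The median change of the members was 0.56, beside -0.31 over all tested genes. These calls are for TPM as deposited. After a correction for the GC content and length of transcripts, TXN (0.27), TXNIP (0.29) and TXNRD1 (0.91) were called higher, and PRDX3 did not pass (-0.14). With libraries scaled by median ratios, TXN and TXNIP did not pass and TXNRD1 was called higher (0.47). The 6 transcripts that rose were called higher in both.

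**Figure D1:**
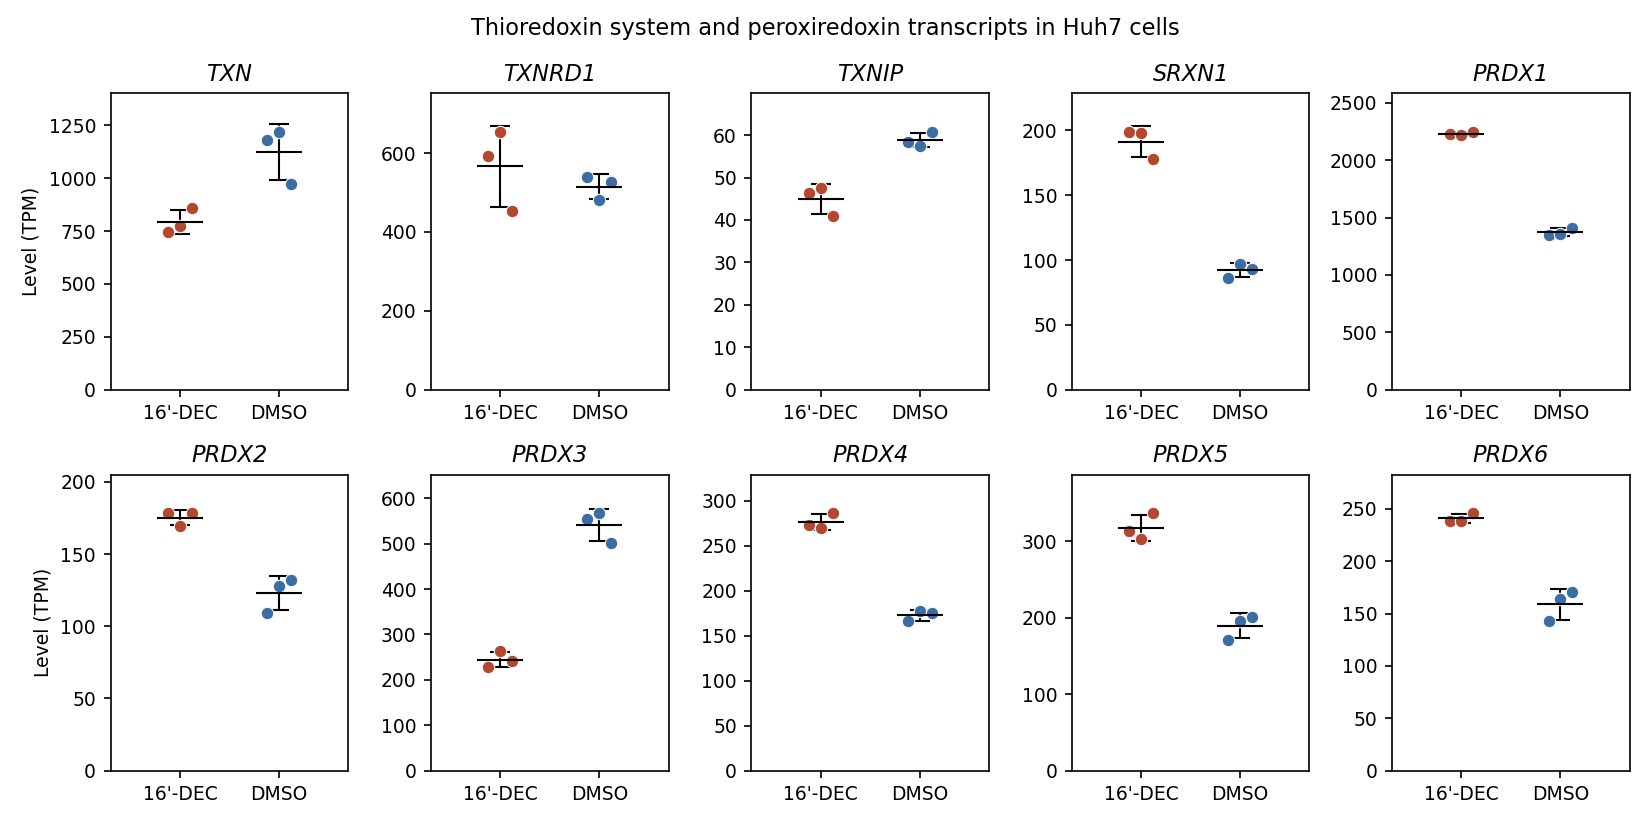
Level in TPM of each of the 10 members, with a panel per gene and its own axis from 0. Points are single libraries (16'-DEC left, DMSO right), and the horizontal line and bar are the mean and SD of 3 libraries. SRXN1 and 5 of the peroxiredoxins lie higher with 16'-DEC, PRDX3, TXN and TXNIP lie lower, and the TXNRD1 groups overlap.

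Sequences before transcription start sites are shown for the genes with the greatest rise and fall, SRXN1 and PRDX3, and for TXNRD1, whose windows held the core of the antioxidant response element. This element is the DNA site bound by NRF2, and its core was searched as TGACNNNGC on both strands. The E-box was searched too, only as the exact letters CACGTG, which read the same on both strands. The windows are the 250 bases before RefSeq start sites on GRCh38.p14, read 5′ to 3′ on the gene's strand, and capitals mark a match to either motif. RefSeq windows were on hand for 8 of the 10 members with 11 start sites; PRDX1 and PRDX6 were not among them.
SRXN1 (chr20:653201-653450, minus strand): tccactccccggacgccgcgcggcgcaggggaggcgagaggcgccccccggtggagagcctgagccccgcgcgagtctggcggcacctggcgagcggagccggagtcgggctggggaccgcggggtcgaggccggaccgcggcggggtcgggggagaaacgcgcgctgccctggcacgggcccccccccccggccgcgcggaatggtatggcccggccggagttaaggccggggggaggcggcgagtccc
PRDX3 (chr10:119178813-119179062, minus strand): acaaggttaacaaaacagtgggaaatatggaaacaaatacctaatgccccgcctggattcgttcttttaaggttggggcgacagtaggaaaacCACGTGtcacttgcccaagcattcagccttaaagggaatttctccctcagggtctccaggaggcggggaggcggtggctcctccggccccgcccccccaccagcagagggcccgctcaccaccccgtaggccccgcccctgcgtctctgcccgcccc
TXNRD1, upstream start (chr12:104215529-104215778, plus strand): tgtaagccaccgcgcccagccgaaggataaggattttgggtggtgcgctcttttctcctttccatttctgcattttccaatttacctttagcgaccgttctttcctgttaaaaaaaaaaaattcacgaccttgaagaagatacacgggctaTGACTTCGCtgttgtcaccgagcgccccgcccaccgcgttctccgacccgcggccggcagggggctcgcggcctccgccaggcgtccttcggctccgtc
TXNRD1, downstream start (chr12:104286782-104287031, plus strand): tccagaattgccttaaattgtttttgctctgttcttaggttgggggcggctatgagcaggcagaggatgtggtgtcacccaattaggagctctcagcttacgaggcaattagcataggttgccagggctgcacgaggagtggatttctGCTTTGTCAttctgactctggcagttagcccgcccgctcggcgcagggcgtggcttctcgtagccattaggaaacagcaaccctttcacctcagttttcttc
The antioxidant response element core was found in both windows of TXNRD1, with its first base 99 and 102 bases before the start, and in no other window of these genes. Of all 35116 windows of this length, 10.9% held it. The E-box was found in the windows of PRDX3, 157 bases before the start, and PRDX4, 83 bases before it, against 6.34% of all windows. These exact letters were not in either TXNIP window. Looser forms of the E-box were not searched, so this does not tell whether glucose-sensing factors have a site there. A match describes letters only, and the values per gene do not tell which start site of TXNRD1 was in use.

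The 3 genes of the thioredoxin cycle were lower or did not pass. TXN (ENSG00000136810; chromosome 9, 110243811 to 110256640; GRCh38, GENCODE 29, as for all gene positions) had 748, 775 and 859 TPM in the 16'-DEC libraries, against 1180, 1219 and 972 TPM in the DMSO libraries. Every 16'-DEC library lay below every DMSO library, although DMSO replicate 3 stood nearer to the treated ones than the other DMSO libraries did. The change was -0.50 ± 0.0983 (adjusted p = 0.00165, limma). With median-of-ratios scaling it was -0.14 and did not pass (adjusted p = 0.324), and a correction for the GC content and length of transcripts put it at 0.27, called higher (adjusted p = 0.0402). Over all 16 alternatives the adjusted p ran from 0.000269 to 0.324. The direction for TXN thus differed between these treatments of the values.

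TXNRD1 (ENSG00000198431; chromosome 12, 104215779 to 104350305), the reductase, had 591, 653 and 454 TPM with 16'-DEC and 540, 480 and 525 TPM with DMSO. The treated libraries spread more widely than the vehicle libraries, with 16'-DEC replicate 3 below all 3 of the DMSO libraries and the other two above them. The change was 0.12 ± 0.126 (adjusted p = 0.406, limma). Without 16'-DEC replicate 3 it passed as higher at 0.27 (adjusted p = 0.0197), as it did with median-of-ratios scaling at 0.47 (adjusted p = 0.00339) and after the GC and length adjustment at 0.91 (adjusted p = 6.18e-05). With quantile normalization it was 0.00132 (adjusted p = 0.992), and the range over all alternatives ran from 6.18e-05 to 0.992. AC089983.1, an antisense RNA gene opposite TXNRD1, lay between 4.25 and 5.43 TPM with 16'-DEC and between 0.798 and 1.21 TPM with DMSO. Strand use in counting is not stated, so reads of these genes cannot be told apart, but the antisense level was small beside that of TXNRD1.

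TXNIP (ENSG00000265972; chromosome 1, 145992435 to 145996600), the inhibitor of thioredoxin, had 46.5, 47.5 and 41.0 TPM in the 16'-DEC libraries and 58.4, 57.4 and 60.7 TPM in the DMSO libraries. It was the least abundant of the 10 genes in both groups. The groups did not overlap, and the change was -0.38 ± 0.0812 (adjusted p = 0.00241, limma). It did not pass with median-of-ratios scaling (-0.04, adjusted p = 0.605) or quantile normalization (-0.14, adjusted p = 0.0773), and was called higher after the GC and length adjustment (0.29, adjusted p = 0.00143), with adjusted p-values from 0.00143 to 0.605 over all alternatives. TXN exceeded TXNIP 17.8 ± 2.76-fold with 16'-DEC and 19.2 ± 2.77-fold with DMSO (ratio of TPM within a library, mean ± SD, n = 3 each), and these ratios overlapped between the groups. Such a ratio is not altered by a single factor per library, but quantile normalization moved these genes apart, at -0.71 and -0.14.

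The cytosolic peroxiredoxins rose. PRDX1 (ENSG00000117450; chromosome 1, 45511036 to 45523047), the main peroxide scavenger of the cytosol and the most abundant of the 10 genes, had 2226, 2220 and 2244 TPM with 16'-DEC and 1349, 1360 and 1413 TPM with DMSO. The treated libraries agreed closely, and all lay above the DMSO libraries. The change was 0.70 ± 0.0574 (adjusted p = 6.67e-06, limma). By mean level PRDX1 ranked 76 among all tested genes with 16'-DEC and 99 with DMSO. With quantile normalization its change was 0.39, still called higher.

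PRDX2 (ENSG00000167815; chromosome 19, 12796820 to 12801859), the second cytosolic scavenger, had 178, 169 and 178 TPM in the 16'-DEC libraries and 109, 128 and 132 TPM in the DMSO libraries. All treated libraries lay above all DMSO libraries, with a change of 0.51 ± 0.0849 (adjusted p = 0.000563, limma). After the GC and length adjustment it was 0.24, still called higher. PRDX2 overlaps HOOK2 on the same strand, and HOOK2 lay at 4.97 to 5.40 TPM with 16'-DEC and 8.03 to 9.07 TPM with DMSO, far below PRDX2. PRDX1 overlaps MMACHC on the opposite strand, which lay at 5.32 to 5.83 TPM with 16'-DEC and 4.47 to 5.80 TPM with DMSO.

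The 2 peroxiredoxins of mitochondria went opposite ways. PRDX3 (ENSG00000165672; chromosome 10, 119167703 to 119178833), found in the mitochondrial matrix and recharged there by the mitochondrial thioredoxin TXN2, had 229, 262 and 242 TPM with 16'-DEC and 554, 567 and 501 TPM with DMSO. Every treated library held about the same low level, and none came near the lowest DMSO library. The change was -1.14 ± 0.0795 (adjusted p = 2.41e-06, limma), the largest fall among the members. It stayed below 0 under all 16 alternatives, from -1.20 to -0.14, but did not pass after the GC and length adjustment (-0.14, adjusted p = 0.0890), with or without the replicate number as a block. The adjusted p ran from 1.61e-07 to 0.0938 over the alternatives.

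PRDX5 (ENSG00000126432; chromosome 11, 64318088 to 64321811), found in mitochondria, peroxisomes and cytosol, had 313, 303 and 337 TPM in the 16'-DEC libraries and 171, 196 and 202 TPM in the DMSO libraries. The groups were well apart, and the change was 0.74 ± 0.0833 (adjusted p = 4.79e-05, limma), or 0.44 after the GC and length adjustment. The order of both mitochondrial genes was reversed between the groups. PRDX3 stood at 0.772 ± 0.0826 of PRDX5 with 16'-DEC and at 2.87 ± 0.378 of it with DMSO (ratio of TPM within a library, n = 3 each), with no overlap. Their transcripts had 40.7% and 61.5% GC, and after the GC and length adjustment their changes were -0.14, which did not pass, and 0.44.

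PRDX4 (ENSG00000123131; chromosome X, 23664262 to 23686399), the peroxiredoxin of the endoplasmic reticulum, which also passes oxidizing power into protein folding, had 274, 270 and 286 TPM with 16'-DEC and 166, 177 and 175 TPM with DMSO. The treated libraries were all higher, by 0.68 ± 0.0653 (adjusted p = 1.89e-05, limma). PRDX6 (ENSG00000117592; chromosome 1, 173477266 to 173488807), which works with a single catalytic cysteine, draws on glutathione rather than thioredoxin and also acts on phospholipids, had 239, 238 and 246 TPM with 16'-DEC and 143, 163 and 170 TPM with DMSO. Its groups did not overlap either, and it rose by 0.60 ± 0.0804 (adjusted p = 0.000146, limma), or 1.02 after the GC and length adjustment. PRDX4 and PRDX6, like SRXN1, PRDX1, PRDX2 and PRDX5, were called higher under all 16 alternatives.

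SRXN1 (ENSG00000271303; chromosome 20, 646615 to 653370), the repair enzyme of over-oxidized peroxiredoxins, had 199, 198 and 178 TPM in the 16'-DEC libraries and 86.5, 96.8 and 93.2 TPM in the DMSO libraries. The lowest treated library was well above the highest DMSO library. The change was 1.04 ± 0.0780 (adjusted p = 3.70e-06, limma), the largest rise among the members, and it ran from 0.98 to 1.39 over the alternatives. Among tested genes SRXN1 ranked 671 by mean level with 16'-DEC and 1640 with DMSO. It stood at 0.785 ± 0.0723 of PRDX3 with 16'-DEC and at 0.171 ± 0.0151 of it with DMSO (n = 3 each). These ratios are from TPM as deposited. After the GC and length adjustment SRXN1 was at 0.98, and PRDX3 was at -0.14 and did not pass.

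Summed over PRDX1 to PRDX6, the family held 3458, 3462 and 3534 TPM in the 16'-DEC libraries and 2493, 2592 and 2593 TPM in the DMSO libraries. The sum was higher in every treated library, while its makeup shifted. PRDX1 made up 64.0% ± 0.435 of the sum with 16'-DEC and 53.7% ± 1.08 with DMSO, and PRDX3 made up 7.01% ± 0.505 with 16'-DEC and 21.1% ± 1.60 with DMSO (n = 3 each). The other 4 each took between 4.89% and 9.53% with 16'-DEC and between 4.39% and 7.78% with DMSO. TXN stood at 0.356 ± 0.0241 of PRDX1 with 16'-DEC and at 0.820 ± 0.115 of it with DMSO, without overlap. After the GC and length adjustment the changes of TXN and PRDX1 lay closer together, at 0.27 and 0.69. The change of PRDX3, whose transcript had 40.7% GC, was then -0.14 and did not pass. The sums and shares are from TPM as deposited, without that adjustment.

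**Figure D2:**
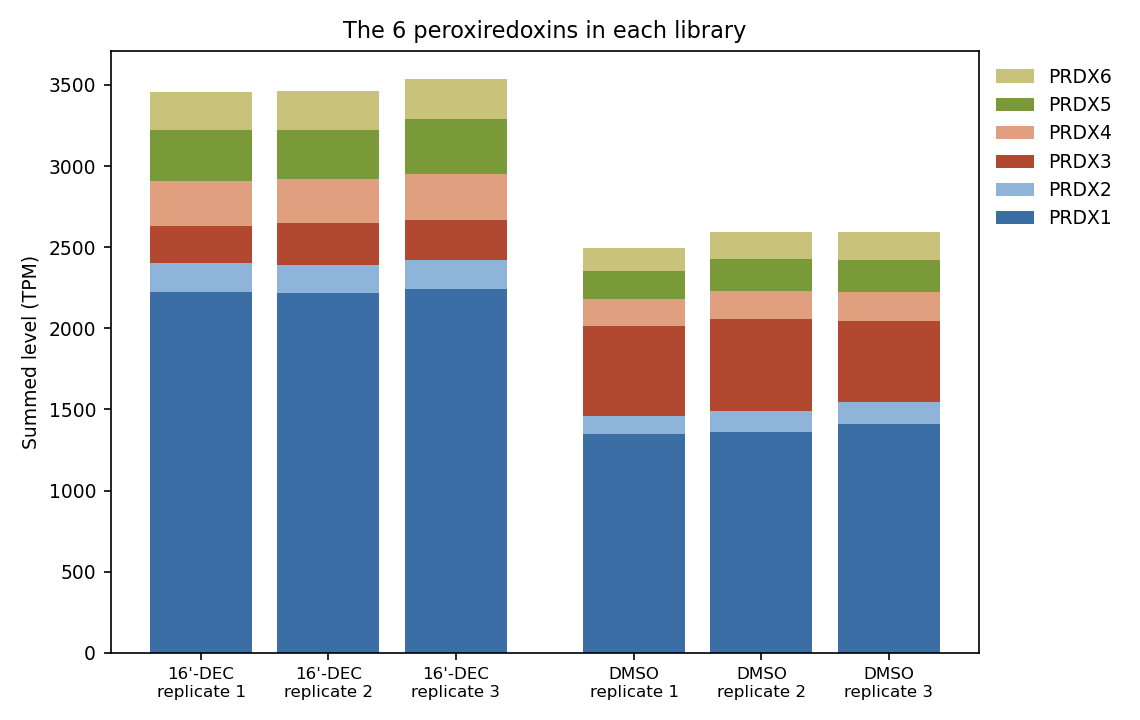
Stacked levels, in TPM as deposited and without the GC and length adjustment, of the 6 peroxiredoxins in each library, 16'-DEC left and DMSO right. Bars reach 3458 to 3534 TPM with 16'-DEC and 2493 to 2593 TPM with DMSO, and the PRDX3 segment is the one that is smaller in the treated libraries.

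By mean level, the order with 16'-DEC was PRDX1, TXN, TXNRD1, PRDX5, PRDX4, PRDX3, PRDX6, SRXN1, PRDX2 and TXNIP. With DMSO it was PRDX1, TXN, PRDX3, TXNRD1, PRDX5, PRDX4, PRDX6, PRDX2, SRXN1 and TXNIP. The ranges of PRDX3 and PRDX6 overlapped with 16'-DEC, as did those of SRXN1 and PRDX2. With DMSO the ranges overlapped for PRDX3 and TXNRD1 and for PRDX5 and PRDX4, and PRDX4 overlapped PRDX6. PRDX3 thus moved below PRDX4 and PRDX5 with 16'-DEC, and its range with 16'-DEC lay wholly below theirs.

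Changes across the transcriptome went with the GC content of transcripts, and the members followed the same pattern in part. TXN, TXNRD1, TXNIP and PRDX3 all had transcripts of 40.7% to 43.9% GC. In the band from 40% to 45%, 79.7% of 2775 tested genes were called lower and 5.30% higher, with a median change of -0.86. TXN, TXNIP and TXNRD1 lay above that median and PRDX3 below it. PRDX6, at 45.2% GC, rose by 0.60 where the median of the band from 45% to 50% was -0.33. SRXN1, PRDX1 and PRDX4, at 51.4% to 53.6%, lay above the band median of 0.03. PRDX2, at 58.6%, and PRDX5, at 61.5%, rose by 0.51 and 0.74 where the band medians were 0.22 and 0.27. After the adjustment for GC content and length, 9 members were called higher and none lower, beside 34.5% higher and 31.7% lower over the 13291 genes with a GC value. The part of GC content in the changes of single members was not tested beyond this adjustment.

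**Figure D3:**
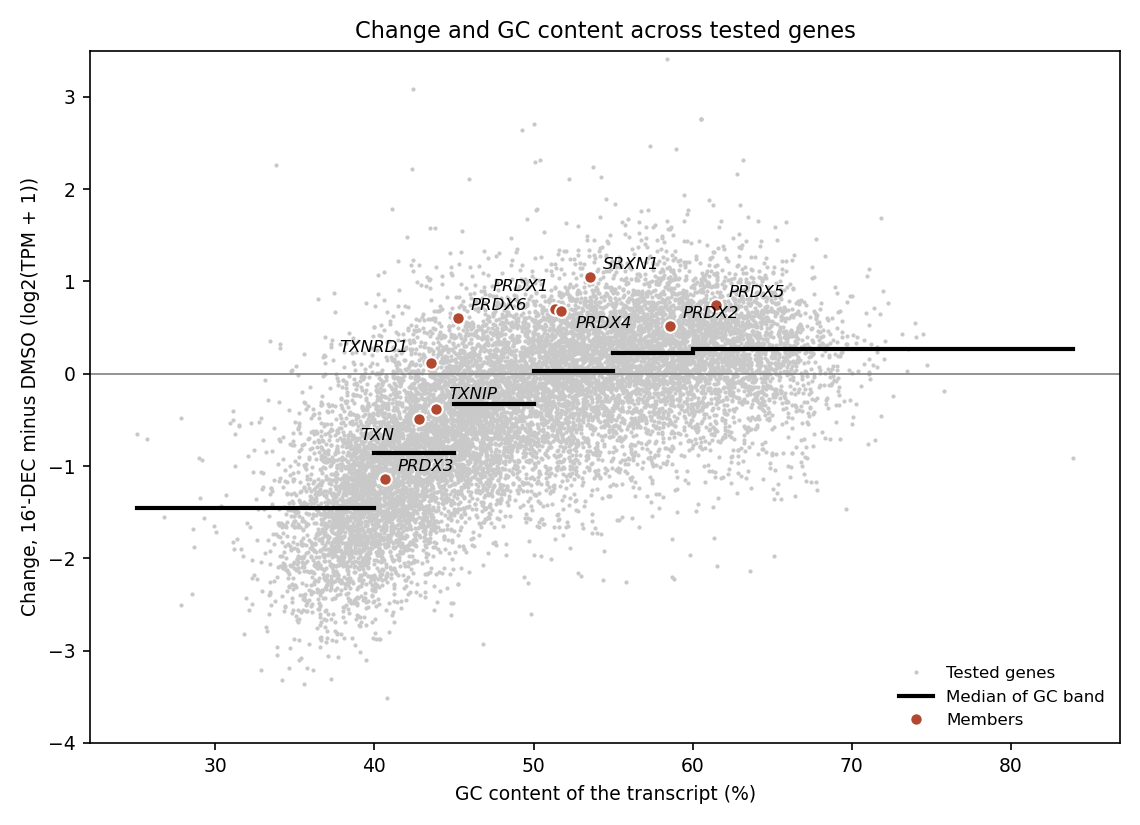
Change in log2(TPM + 1), 16'-DEC minus DMSO, against the GC content of the transcript in percent. Grey points are tested genes with a GC value, black lines the medians of 6 GC bands and red points the 10 members. The 4 members of lowest GC content include the 3 that fell, and 9 of the 10 members lie above the median of their band, with PRDX3 the exception.

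The alternatives moved single members differently. The median of all tested genes shifted up by 0.29 with median-of-ratios scaling and by 0.41 with quantile normalization. With quantile normalization the median of the members moved by -0.04, and PRDX1 stood at 0.39 and TXN at -0.71. With median-of-ratios scaling the 5 peroxiredoxins that rose were at 0.86 to 1.09. Relative to the median change of all tested genes, which was -0.31, the members stood at 1.35 (SRXN1), 0.82 to 1.05 (the 5 peroxiredoxins that rose), 0.43 (TXNRD1), -0.08 (TXNIP), -0.19 (TXN) and -0.84 (PRDX3). Of the members, 7 were called higher and 1 lower with median-of-ratios scaling (all genes 37.1% and 37.7%), and 6 higher and 2 lower with quantile normalization (all genes 42% and 33.3%). SRXN1 and the 5 peroxiredoxins other than PRDX3 were called higher under each of these. PRDX3 was called lower with both scalings.

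**Figure D4:**
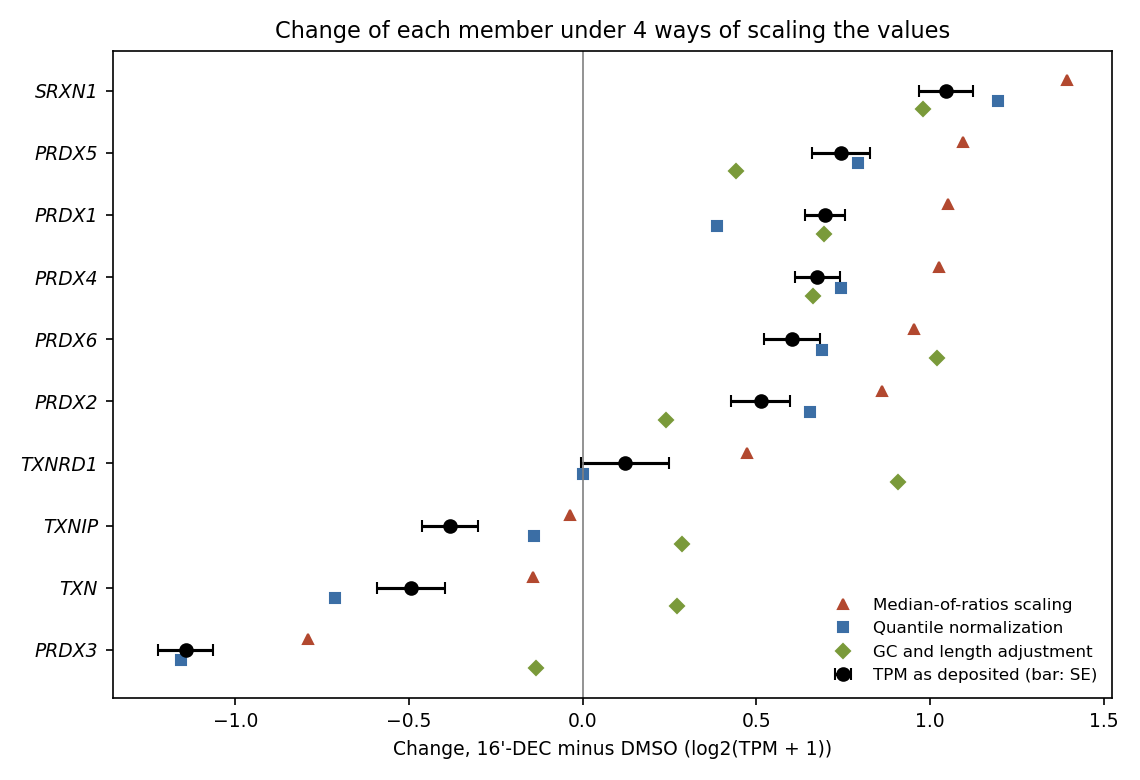
Change of each member, 16'-DEC minus DMSO, on the log2(TPM + 1) scale: black points with SE bars for TPM as deposited, and colored symbols for 3 other scalings. SRXN1 and 5 peroxiredoxins lie right of 0 throughout, PRDX3 lies left of 0 throughout, and TXN and TXNIP cross 0 only with the GC and length adjustment.

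Genes that work beside the members were read from 7 lists, in which 76 of 83 genes could be tested. Of these, 34 rose, 25 fell and 17 did not pass, beside 22.7% higher and 48.9% lower over all tested genes. Medians near 0 depended on scaling: those of the thioredoxin-fold and client lists, -0.08 and -0.14, came to 0.26 and 0.11 when libraries were scaled by median ratios, to 0.18 and 0.34 with quantile normalization and to 0.14 and 0.07 after the GC and length adjustment. The selenocysteine list, at -0.09, was at 0.26, -0.09 and 0.10 under these. The list of dismutases, catalase, sestrins and PARK7, at 0.16, was at 0.51, 0.22 and -0.01. The medians of the glutathione, arrestin and NRF2 lists stayed above 0 under all 3. Among other thioredoxin-fold proteins, of 15 tested 4 rose and 5 fell, with a median change of -0.08. TXNDC9, a cofactor of the CCT chaperonin, fell to 85.2 ± 2.95 TPM with 16'-DEC, against 354 ± 17.2 TPM with DMSO (-2.04, adjusted p = 1.17e-07, limma). Here and elsewhere, levels, ratios and shares with ± are mean ± SD of 3 libraries, while changes carry the SE. TMX1 and TMX3, membrane-bound oxidoreductases of the endoplasmic reticulum, fell by 2.29 and 2.08. Their transcripts had 34.9% to 39.5% GC, and after the GC and length adjustment the falls of these 3 genes were between 0.49 and 0.91 in size. TMX2, of the same family, rose by 0.54. TXN2, the mitochondrial thioredoxin that serves PRDX3, and named here after its values were seen, rose by 0.30 (adjusted p = 0.00599) and stood at 0.07 after that adjustment.

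Most genes of the parallel glutathione arm rose. Of 15 tested glutaredoxins and glutathione genes, 9 rose and 3 fell (median 0.32), beside 22.7% higher and 48.9% lower over all tested genes. PGD, which makes NADPH in the pentose phosphate pathway, reached 482 ± 31.2 TPM with 16'-DEC, against 209 ± 18.2 TPM with DMSO (1.20, adjusted p = 2.78e-06, limma). GPX4, the peroxidase of membrane lipid peroxides, rose by 0.99 and GPX2, a cytosolic glutathione peroxidase, by 0.52. IDH1, another source of cytosolic NADPH, fell by 0.67 but stood at 0.04 after the GC and length adjustment. GCLC, of glutathione synthesis, and GLRX2, both named here after their values were seen, had changes of -0.48 and -0.56. After that adjustment they stood at 0.20 and 0.49.

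Among dismutases, catalase, sestrins and PARK7, of 6 tested 2 rose and 2 fell, beside 22.7% higher and 48.9% lower over all tested genes. Catalase (CAT), named here after its values were seen, had a change of -0.77, and of -0.33 after the GC and length adjustment. PARK7, a redox-sensing chaperone also called DJ-1, rose by 0.39 (0.85 after the GC and length adjustment) and SOD2, the mitochondrial superoxide dismutase, by 0.44, while SESN1, a stress-responsive inhibitor of mTORC1, fell to 7.28 ± 0.920 TPM with 16'-DEC, against 22.3 ± 0.807 TPM with DMSO, and its change was -0.72 after that adjustment. Of 9 tested genes that thioredoxin serves or binds, 3 rose and 4 fell, beside the same 22.7% higher and 48.9% lower over all tested genes. RRM2B and RRM1, subunits of ribonucleotide reductase, which uses thioredoxin as a reductant, fell by 2.04 and 1.01, and stood at -0.47 and -0.21 after the GC and length adjustment. MSRB1, a selenoprotein that repairs oxidized methionine, rose by 1.23 to 82.2 ± 1.76 TPM with 16'-DEC, against 34.6 ± 3.79 TPM with DMSO.

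Alpha-arrestins related to TXNIP, glucose-sensing factors that control it and a glucose transporter made up 8 genes, of which 3 rose and 3 fell. Over all tested genes 22.7% were called higher and 48.9% lower. MLX, the partner of MondoA and ChREBP, rose by 0.34, and the arrestins ARRDC2 and ARRDC1 by 0.42 and 0.37, although neither arrestin passed after the GC and length adjustment (0.13 and 0.07). MLXIPL, which encodes ChREBP, fell to 21.8 ± 2.48 TPM with 16'-DEC, against 46.0 ± 3.69 TPM with DMSO (-1.05, adjusted p = 2.28e-05, limma), and was at -1.26 after that adjustment. ARRDC4, the arrestin most often described as controlled alongside TXNIP, and named here after its values were seen, fell by 0.93 (adjusted p = 4.63e-05) and stood at -0.11 after the adjustment.

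Selenocysteine insertion, without which TXNRD1 protein lacks its selenocysteine, was represented by 10 genes, of which 3 rose and 5 fell. Over all tested genes 22.7% were called higher and 48.9% lower, and this list lay near those shares. NCL (nucleolin), which binds selenoprotein messages, fell to 351 ± 30.0 TPM with 16'-DEC, against 999 ± 33.8 TPM with DMSO (-1.51, adjusted p = 4.59e-07, limma). SEPSECS, which completes selenocysteine on its tRNA, fell by 1.38 but was at 0.12 after the GC and length adjustment, and SECISBP2, which reads the insertion signal, fell by 0.84 (-0.37 after it). TRNAU1AP, a binding protein of the selenocysteine tRNA, rose by 0.85.

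The list of NRF2 holds its own gene, its repressors KEAP1 and BACH1, its small MAF partners and known targets outside the members. Of these 15 genes, 11 rose and 3 fell, beside 22.7% called higher and 48.9% lower over all tested genes. Their median was 0.86, beside -0.31 over all tested genes. Those that rose include KEAP1, MAFF and MAFK, so the count is not one of targets alone. SLC7A11, a known target, and BACH1, both named here after their values were seen, had changes of -1.41 and -1.15. After the GC and length adjustment they stood at 0.27 and 0.26. OSGIN1, an oxidative stress growth inhibitor, rose by 1.44, as did MAFF, a small partner protein of NRF2, and AKR1C1, an aldo-keto reductase with close paralogs, rose by 2.22. NFE2L2, which encodes NRF2 and is one of the 3 that fell, had 108 ± 10.0 TPM with 16'-DEC and 299 ± 14.2 TPM with DMSO (-1.47, adjusted p = 8.19e-07, limma; -1.02 after the GC and length adjustment). The members SRXN1, TXNRD1 and PRDX1, known NRF2 targets too, had changes of 1.04, 0.12 and 0.70. TXN, also counted among NRF2 targets, had a change of -0.50, called lower, and 0.27 after the GC and length adjustment.

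**Figure D5:**
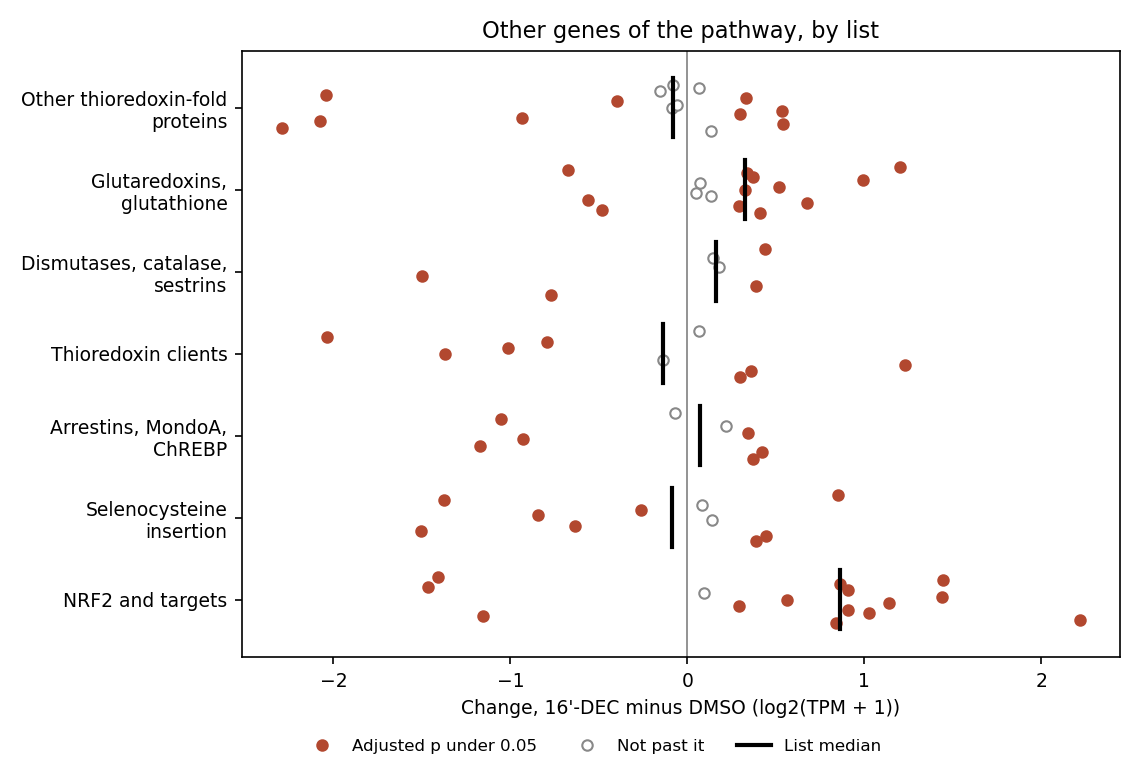
Change of each tested gene in 7 lists, 16'-DEC minus DMSO, on the log2(TPM + 1) scale. Filled points passed an adjusted p of 0.05, open points did not, and the black bar is the list's median. The medians lie between -0.14 and 0.86, with NRF2 and its targets highest.

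The genes whose profile over the 6 libraries was most like that of TXNRD1 were LONRF3, KCTD20 and GPR107, with root mean square differences of 0.0276, 0.0402 and 0.0501 in centred log2(TPM + 1) among 9814 candidates of at least 5 TPM. For TXNIP they were CDKAL1, SH3KBP1 and SFSWAP, at 0.0240, 0.0252 and 0.0267. Their changes were 0.07 to 0.15 for the TXNRD1 set, none of which passed, and -0.41 to -0.36 for the TXNIP set. Likeness over so few libraries is a description. For TXNIP, whose groups did not overlap, it is set largely by the difference between the groups. For TXNRD1, whose groups overlapped, it also rests on the spread of libraries within a group.

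As for the libraries themselves, 13131 to 13459 genes reached 1 TPM with 16'-DEC and 14936 to 15118 with DMSO, and absolute depth is unknown from TPM. All 8 hepatocyte markers were measured, at a summed 12098 to 12538 TPM with 16'-DEC and 13895 to 14489 TPM with DMSO. Single markers went opposite ways: AFP lay at 827 to 1043 TPM with 16'-DEC and 2510 to 2849 TPM with DMSO, and APOA1 at 1149 to 1287 TPM with 16'-DEC and 646 to 816 TPM with DMSO. ALB, APOB and FGB also lay lower in every 16'-DEC library than in any DMSO library, and SERPINA1 higher. Of 5 leukocyte markers 2 reached a mean of 1 TPM, with sums of 833 to 954 TPM with 16'-DEC and 1639 to 1812 TPM with DMSO, nearly all of it LYZ. CD3E was listed at 0, and PTPRC, the pan-leukocyte marker, stayed at 0.003 to 0.034 TPM with 16'-DEC and 0.059 to 1.17 TPM with DMSO. Of 5 fibroblast markers 1 reached a mean of 1 TPM, with sums of 0.710 to 2.26 TPM with 16'-DEC and 1.58 to 2.52 TPM with DMSO, and DCN was listed at 0. Of 4 endothelial markers none did, with sums of 0.306 to 0.722 TPM with 16'-DEC and 0.200 to 0.526 TPM with DMSO. In bulk RNA, fewer cells expressing a gene and less RNA of it per cell cannot be told apart. Of 18 pseudogenes named after TXN and the peroxiredoxins, 14 were listed at 0 in every library and none exceeded 0.297 TPM with 16'-DEC or 0.700 TPM with DMSO.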

How the data were processed

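Poly(A) RNA was sequenced from Huh7 cells. The deposited values are TPM from the authors, 1 column per library, with the same sum in each within rounding. HTSeq 0.6.1, HISAT2 2.0.1, cutadapt 1.9.1 and DESeq2, with the build GRCh38, appear in the submitters' processing notes with no role. Annotation, gene lengths, strand setting and depth are not stated there.

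Libraries were grouped by their titles. Genes averaging 1 TPM or more were tested on log2(TPM + 1), which understates changes of low genes, with limma 3.58.1 in R 4.3.3 (eBayes with a mean trend, 2-sided). The limma fit was tested on simulated data. P-values were adjusted over all tested genes by Benjamini-Hochberg. The members and lists were chosen with earlier results of these data known. Outside the members, the genes named are, per list, up to 3 with the smallest adjusted p among those that moved as most of the list did and 1 that moved the other way, with higher taken as the main direction where the counts were equal. A gene on more than 1 list is named under the first, and exceptions are marked. Of the genes this rule gives, 1 is not reported here.

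GC content and length came from 1 GENCODE 29 transcript per gene (APPRIS principal, then basic, then longest) for 93.1% of tested genes, SOD2 not among them. The correction subtracted, library by library, natural splines with 5 degrees of freedom in each of these, fitted to the deviations from gene means. It also re-centres each library. The other alternatives were pseudocounts of 0.1 and 5, no filter or 5 TPM, median-of-ratios and quantile scaling, no mean trend, the replicate number as a block, and leaving out each library. Figures were drawn with matplotlib 3.10.9.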

Additional observations from a re-analysis of the deposited data

How the results depend on the processing

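Each of the 10 members was refitted under 16 alternatives. Of these values, 147 kept their direction and their side of the threshold. TXN and TXNIP turned above 0 with the GC and length adjustment, at 0.27 and 0.29, and with the replicate block beside it (0.27, adjusted p = 0.0804, and 0.29, adjusted p = 0.00946). Of the 26 other genes named by the rule, IDH1 (0.0432) and SEPSECS (0.12) turned above 0 with that adjustment, with or without the block. ARRDC2 and ARRDC1 no longer passed in either, nor RRM1 with the block. The number of members called lower was 3 as deposited, 1 with median-of-ratios scaling and 0 with the GC and length adjustment, with or without the block. Leaving out any single library left 3 lower and 6 or 7 higher. For the other pathway genes, 14 were lower after that adjustment and 12 with the block beside it, against 25 as deposited. Over all genes 3236 were higher and 6974 lower as deposited. Quantile normalization made 5992 and median-of-ratios scaling 5290 higher, and with the GC and length adjustment 4213, or 3982 with the block, were lower. The summed level of the 6 peroxiredoxins averaged 3485 TPM with 16'-DEC and 2559 TPM with DMSO as deposited, 3928 and 2255 TPM with median-of-ratios scaling, and 3938 and 2907 TPM without mitochondrially encoded genes. The cause of these shifts was not tested.

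Same-numbered libraries of the groups did not deviate together (Pearson's r across 14275 genes of 0.0941, -0.182 and -0.0726). Over all pairs of a treated and a DMSO library r ran from -0.196 to 0.274. With 3 libraries per group this shows no pairing by number but cannot exclude one. With the replicate block alone 3014 genes were higher and 6823 lower, and no member's call changed. TPM carry no depth, so counting error is unknown.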
